A study of Mus musculus with 23 samples.

Results

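The serine/threonine protein phosphatase subunits measured here are the genes whose symbol starts with Ppp1, Ppp2, Ppp4, Ppp5 or Ppp6, each read by probe sets that the array annotation assigns to 1 gene only. The calcineurin genes (Ppp3) were left out by this rule. It found 74 genes with 159 probe sets, out of 18192 genes with 35040 one-gene probe sets in the whole series. Of these, 91 probe sets for 50 genes lay on the MOE430A array and 68 probe sets for 36 genes on the MOE430B array, and 12 genes were on both. Catalytic subunits made up 8 genes with 18 probe sets and regulatory subunits 62 genes with 130 probe sets. The other 4 genes, with 11 probe sets, carry a subunit symbol but encode no subunit. They are the pseudogenes Ppp1r2-ps7, Ppp1r2-ps9 and Ppp4r1l-ps and the antisense transcript Ppp2r2cos.

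RNA came from the hippocampal CA3 field of UBB+1 tg mice and wild-type mice. UBB+1 is a frameshifted form of ubiquitin B that inhibits the proteasome, and the transgene is driven by the CaMK2α promoter, which is active in forebrain neurons. By the methods of the study the mice were heterozygous for the transgene on a C57BL/6J background, the controls were non-transgenic littermates, and all were 18 months old. Their sex was not given in the sources used here. MOE430A arrays covered 6 UBB+1 tg and 5 wild-type mice, and MOE430B arrays covered the same 11 mice and 1 more wild-type mouse, wt331. Mice are called below by genotype and animal number, as tg270 or wt289.

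Protein phosphatases of this family pair a small number of catalytic subunits with many regulatory partners, which choose the substrate, place the enzyme in the cell or block it. PP1 binds many targeting and inhibitor proteins, while PP2A is a trimer of a catalytic subunit, a scaffold and a variable B-type subunit. In hippocampal neurons PP1 and PP2A oppose protein kinases at synapses, and PP2A is the main phosphatase of the microtubule protein Tau.

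Values are log2 intensities after RMA, the array summary that corrects background, normalizes between arrays and combines the probes of a probe set. Each difference is UBB+1 tg minus wild type on this scale, with its standard error (SE) from limma fitted over all 22625 probe sets of MOE430A or all 22511 of MOE430B. A level belongs to its own probe set, so levels of different probe sets are not set against each other. Nothing here separates fewer cells of a type from less RNA per cell. Of 41 markers of cell types in 11 lists, 3 had a mean in the lowest 25% of their array (Prox1 of dentate granule cells, Mog of oligodendrocytes and Pecam1 of vessels). The markers of CA3 pyramidal cells were not among these, nor were those of neurons, interneurons, CA2, CA1, astrocytes, microglia and choroid plexus. A mean above this limit does not by itself show that a gene was expressed. Some markers of other cell types were at high percentiles of MOE430A (Mbp 99.2, Gja1 92.2, Gad1 86.6), and others were near the limit (Aif1 of microglia 25.6). None of the markers differed between genotypes at an unadjusted p under 0.05 in the fit of genotype alone. With the array sets described below as a block, 7 did, with Snap25 (0.41), Cpne4 (0.42), Rgs14 (0.52), Pcp4 (0.82) and Gad1 (0.26) higher in UBB+1 tg and Tubb3 (-0.48) and C1qa (-0.37) lower. Of all probe sets, 3.77% were then higher and 3.42% lower on MOE430A, and 2.38% and 2.68% on MOE430B. The lists were split. Beside Gad1, Sst (-0.46), Gad2 (-0.35) and Slc32a1 (-0.08) were lower and Pvalb (0.23) higher. Beside Cpne4, Grik4 (-0.08) and Bok (-0.09) were lower. Among the CA2 markers Amigo2 (-0.11) was lower and Necab2 (0.37) higher. The median of the CA2 markers was 0.18 without and 0.44 with the block. The part of these cell types in the results was not tested. The summed oligodendrocyte markers, 1 of the 11 lists, ran from 12.43 to 12.89 in UBB+1 tg and from 12.16 to 12.55 in wild type. This sum rests mostly on Mbp, with means of 12.31 in UBB+1 tg and 12.09 in wild type. The 4 markers in it differed by 0.21 (Mbp), 0.33 (Mobp), 0.03 (Mog) and 0.005 (Mag).

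The arrays fell into 3 sets by overall similarity, and these sets differed in the gap between the 3′ and 5′ probe sets of Gapdh and β-actin, a measure often used for the length of amplified RNA. On MOE430A the gap was 2.65 to 3.43 in the low set (tg271, wt287, wt290), 4.44 to 4.62 in the middle set (tg273, tg274, tg276, tg277, wt291, wt321) and 6.05 to 6.10 in the high set (tg270, wt289). On MOE430B the same animals fell together, with wt331 in the middle set. Both genotypes were in each set, so values within sets are given beside the results they touch.

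At a false discovery rate of 10%, limma called no phosphatase subunit on MOE430A or on MOE430B. It called 0% of all probe sets of MOE430A and 0% of all probe sets of MOE430B, and the lowest adjusted p of any member was 0.984 on MOE430A and 1.00 on MOE430B. At an unadjusted p under 0.05, 5 of the 91 members on MOE430A were higher in UBB+1 tg (5.49%) and 1 was lower (1.10%), where 1.91% of all probe sets were higher and 1.57% lower. Of the 5, the 2 with the lowest p belonged to 1 gene, Ppp2r5c. On MOE430B 0 of 68 members reached this p in limma in either direction, where 1.52% of all probe sets were higher and 1.53% lower. The genotypes overlapped at every member on both arrays. They did not overlap at 0.115% (UBB+1 tg higher) and 0.119% (lower) of all MOE430A probe sets, and at 0.0622% and 0.08% of all MOE430B probe sets.

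The differences were small, and 23 of the 159 probe sets were dim, meaning that their mean was in the lowest 25% of their array. The genotypes were over 1.5-fold apart at 3 members of MOE430A and 0 of MOE430B, where 1.68% and 0.560% of all probe sets were. The 95% confidence interval lay within a 2-fold change in either direction for 75 of 91 members on MOE430A and 67 of 68 on MOE430B. The median difference of the 17 catalytic probe sets on MOE430A was 0.083, with 10 higher and 7 lower, and none reached an unadjusted p under 0.05. The median of the 73 regulatory probe sets was 0.027, with 44 higher and 29 lower. Over all MOE430A probe sets the median was 0.0048. On MOE430B the 57 regulatory probe sets had a median of -0.0052, where that of all probe sets of the array was -0.0055, with 26 higher and 31 lower.

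Among the catalytic subunits, Ppp1ca, the α isoform of PP1, had the largest SE. Its level in UBB+1 tg was 7.75 in tg270, 10.14 in tg271, 10.82 in tg273, 11.02 in tg274, 10.82 in tg276 and 10.78 in tg277. In wild type it was 10.76 in wt287, 8.25 in wt289, 10.44 in wt290, 11.09 in wt291 and 10.70 in wt321. The low values were those of tg270 and wt289, the 2 animals of the high set, 1 of each genotype, and the rest overlapped. The means were 10.22 ± 1.25 (SD, n = 6) and 10.25 ± 1.14 (n = 5), a difference of -0.03 (SE 0.65, exact two-sided permutation p = 0.955 over the 462 ways to split the animals). With the 3 sets added to the fit as a block it was -0.24 (SE 0.12, adjusted p = 0.705).

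Ppp1cb, the β isoform of PP1 that works in myosin phosphatase, was read by 4 MOE430A probe sets, all with a higher mean in UBB+1 tg. At its brightest one, 1426205_at, the levels in UBB+1 tg were 10.25, 9.34, 9.74, 9.05, 9.65 and 9.85 in tg270, tg271, tg273, tg274, tg276 and tg277. The wild-type levels were 8.93, 9.77, 9.11, 9.05 and 9.38 in wt287, wt289, wt290, wt291 and wt321. Of the 6 UBB+1 tg animals 5 lay above the wild-type mean and 2 above every wild-type animal (tg270 and tg277). The others, tg271, tg273, tg274 and tg276, lay within the wild-type range. The difference was 0.40 (SE 0.21, exact permutation p = 0.128, adjusted p = 0.984), and it was 0.32, 0.36 and 0.48 within the low, middle and high sets. The other probe sets of Ppp1cb differed by 0.25 (1433540_x_at, SE 0.28), 0.10 (1431328_at, SE 0.20) and 0.08 (1456462_x_at, SE 0.15).

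Ppp1cc, the γ isoform of PP1 that neurabin holds in dendritic spines, had a mean of 11.74 ± 0.27 (SD, n = 6) in UBB+1 tg and 11.40 ± 0.43 (n = 5) in wild type at 1450149_a_at. The wild-type levels fell into a pair at 10.93 and 10.97 (wt290 and wt287, both in the low set) and 3 between 11.49 and 11.85. The UBB+1 tg levels ran from 11.29 in tg271, the only UBB+1 tg animal of the low set, to 12.06 in tg277. The difference of 0.34 (SE 0.20, exact permutation p = 0.136) was 0.03 within the middle set, which holds 4 UBB+1 tg and 2 wild-type animals, and 0.34 and 0.32 within the low and high sets. The second probe set, 1452046_a_at, differed by 0.21 (SE 0.17).

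The PP2A catalytic subunit has an α and a β gene. The α gene, Ppp2ca, differed by 0.04 (SE 0.13) at its brightest probe set 1417367_at, where UBB+1 tg ran from 10.51 to 10.95 and wild type from 10.37 to 11.05. This was the catalytic value with the narrowest error among those not dim, with a 95% interval of -0.24 to 0.33. At 1456390_at it was 10.15 to 11.04 in UBB+1 tg and 9.47 to 10.79 in wild type, with wt287 lowest at 9.47, a difference of 0.38 (SE 0.23, exact permutation p = 0.162) that was 0.14 within the middle set. On MOE430B the only catalytic probe set, 1439912_at, gave 0.10 (SE 0.25). The β gene, Ppp2cb, differed by -0.07 (SE 0.39) at 1421823_a_at, where tg270 (6.83) and wt289 (7.29) were lowest in their groups. Its second probe set 1421822_at was dim and differed by -0.11 (SE 0.07).

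Ppp4c, the catalytic subunit of PP4, had 1 probe set. UBB+1 tg levels ran from 6.15 (tg270) to 8.35 (tg274) and wild-type levels from 6.27 (wt289) to 8.48 (wt287). Again the 2 animals of the high set were lowest, and the difference was -0.27 (SE 0.44, exact permutation p = 0.563).

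Ppp5c encodes PP5, which carries its own regulatory domain and binds the chaperone Hsp90. It had a lower mean in UBB+1 tg at all 3 of its probe sets. At its brightest, 1451242_a_at, UBB+1 tg levels were 7.60, 9.48, 8.71, 8.81, 8.78 and 8.80 in tg270, tg271, tg273, tg274, tg276 and tg277. Wild-type levels were 9.91, 8.48, 10.08, 8.89 and 8.64 in wt287, wt289, wt290, wt291 and wt321. The highest were the 3 animals of the low set and the lowest were the 2 of the high set. The difference was -0.50 (SE 0.37, exact permutation p = 0.225), and the middle set alone gave 0.01. The other 2 probe sets differed by -0.40 (1424115_at, SE 0.63) and -0.35 (1424116_x_at, SE 0.49), and by 0.23 at both within the middle set. Ppp6c, the PP6 catalytic subunit, differed by 0.13 (1424347_at, SE 0.20) and 0.16 (1424346_at, SE 0.21).

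**Figure D1:**
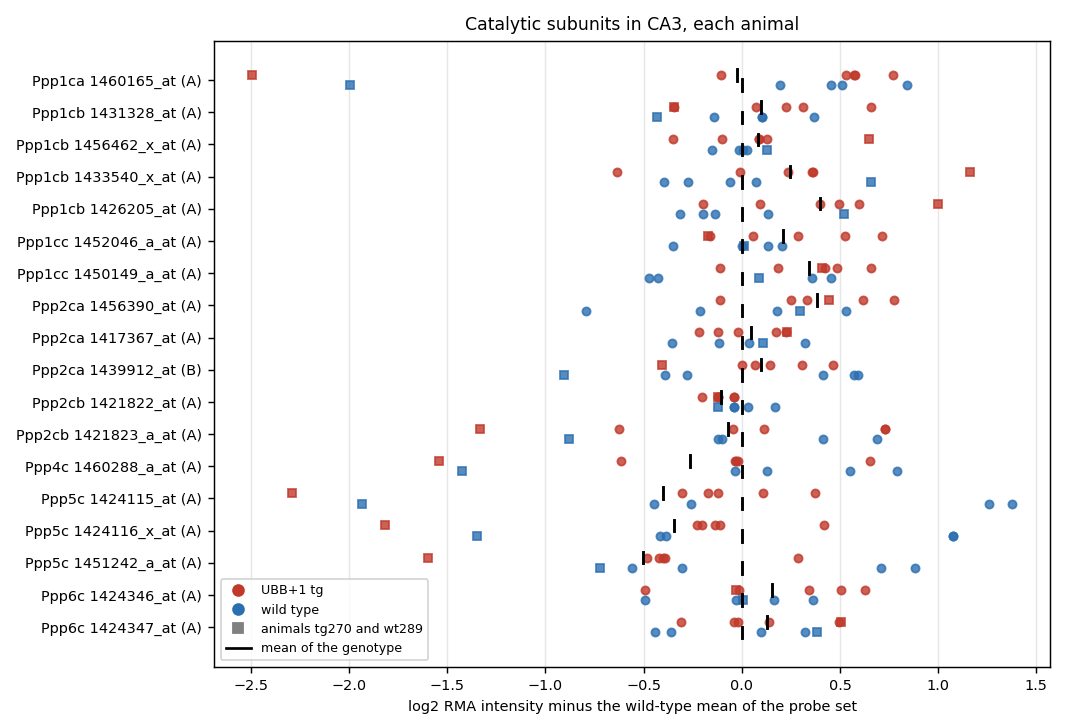
Levels of the 18 catalytic probe sets in each animal, as log2 RMA intensity minus the wild-type mean of the probe set, for UBB+1 tg (red) and wild-type mice (blue), with A and B naming the array and black bars the mean of each genotype. Squares mark tg270 and wt289, which are far below the other animals at Ppp1ca (7.75 and 8.25 against 10.14 to 11.09) and lowest in their groups at Ppp4c and Ppp5c.

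The array sets accounted for much of the spread of these genes. The share of variance that lay between the 3 sets had a median of 72.0% over the 17 catalytic probe sets of MOE430A and 44.3% over the 73 regulatory ones, where the median over all probe sets of that array was 39.6%. On MOE430B it was 47.3% for the regulatory probe sets against 31.5% for all. The sets were found from these same values, so the shares are a description. The share was over 90% at 10 members of MOE430A. They were Ppp1ca, 2 probe sets of Ppp5c, Ppp1r11, Ppp1r14b, Ppp1r1a, Ppp2r1a, Ppp2r2a, Ppp2r2d and Ppp2r5a. In 20 of the 91 members tg270 was the lowest UBB+1 tg animal and wt289 the lowest wild-type animal (22.0%, where 10.98% of all MOE430A probe sets did so), and in 13 both were the highest (of all probe sets 12.6%). The mean of the high set was the highest of the 3 set means at 38 of the 91 members and the lowest at 32, and over all probe sets at 38.7% and 30.0%.

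**Figure D2:**
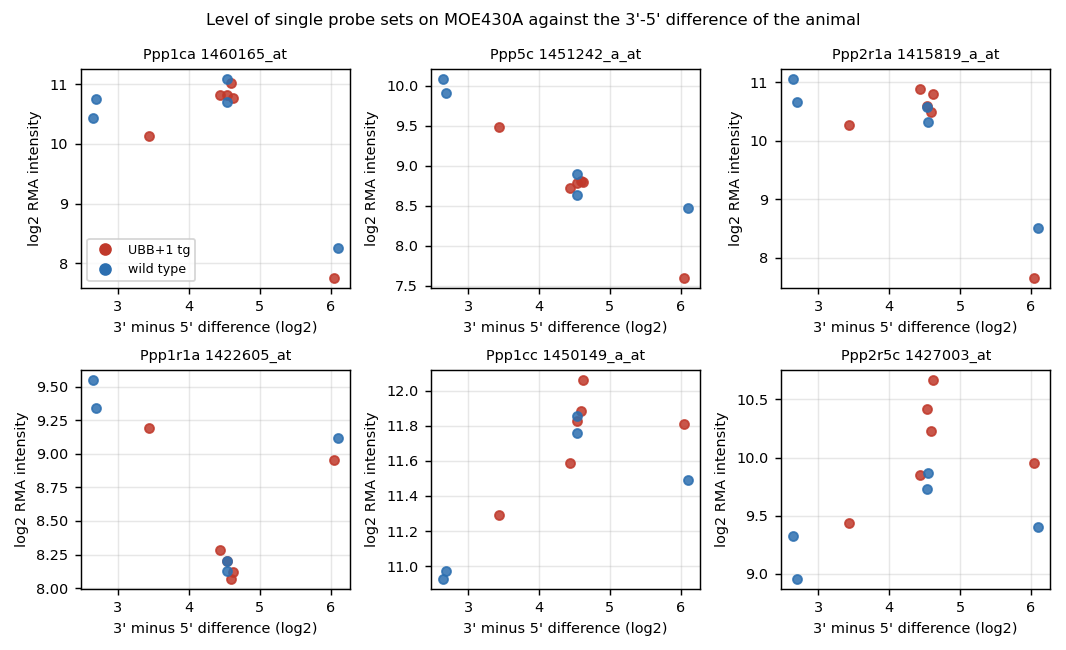
Log2 RMA intensity of 6 probe sets on MOE430A against the 3′ minus 5′ difference of Gapdh and β-actin (log2) in each animal, for UBB+1 tg (red) and wild-type mice (blue). Ppp1ca and 1 probe set of Ppp2r1a are low in tg270 and wt289 alone, Ppp5c falls from the low to the high set, Ppp1r1a is lowest in the middle set, and Ppp2r5c is higher in the UBB+1 tg mean within each set.

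The regulatory subunits of PP2A include the scaffold and the B-type subunits. The scaffold gene Ppp2r1a had 5 probe sets with differences from -0.11 to 0.11. At the brightest, 1438383_x_at, UBB+1 tg levels ran from 12.96 to 13.58 and wild-type levels from 13.11 to 13.49, a difference of -0.04 (SE 0.12). One of its probe sets, 1415819_a_at, was at 7.66 in tg270 and 8.50 in wt289 and between 10.27 and 11.05 in the other 9 animals. The second scaffold gene, Ppp2r1b, differed by 0.33 (SE 0.17, exact permutation p = 0.106). Of the B subunits, which steer PP2A to substrates such as Tau, Ppp2r2d was the brightest on MOE430A and differed by 0.12 (SE 0.22). All B probe sets lay between -0.04 and 0.30 on MOE430A, 5 of 7 higher, and between -0.16 and 0.03 on MOE430B, 3 of 4 lower. Ppp2r2c, a B subunit of neurons, was lower at all 3 of its MOE430B probe sets, by -0.16 (1443804_at, SE 0.09, exact permutation p = 0.0823, dim), -0.15 (1438671_at, SE 0.27) and -0.02 (1438054_x_at, SE 0.24).

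The largest higher value of all members was that of Ppp2r5c, which encodes the γ form of the B′ subunit, a family that directs PP2A to growth and cell cycle substrates. At 1427003_at, its brightest probe set, UBB+1 tg levels were 9.95 in tg270, 9.43 in tg271, 9.85 in tg273, 10.23 in tg274, 10.42 in tg276 and 10.67 in tg277. Wild-type levels were 8.96 in wt287, 9.40 in wt289, 9.33 in wt290, 9.87 in wt291 and 9.73 in wt321. Of the 6 UBB+1 tg animals 5 lay above the wild-type mean and 4 above every wild-type animal, and tg271 and tg273 lay within the wild-type range. The means were 10.09 ± 0.44 (SD, n = 6) and 9.46 ± 0.36 (n = 5), a difference of 0.63 (SE 0.23, 1.55-fold). The unadjusted p was 0.016 in limma and 0.028 in the exact permutation test, and the adjusted p was 0.984.

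All 6 Ppp2r5c probe sets of MOE430A had a higher mean in UBB+1 tg. The difference was 0.46 at 1434205_at (SE 0.24, exact permutation p = 0.104), 0.43 at 1425542_a_at (SE 0.25, p = 0.141) and 0.26 at 1425726_x_at (SE 0.10, p = 0.0216). At 1425726_x_at all 6 UBB+1 tg animals (6.93 to 7.29) lay above the wild-type mean of 6.82, and the wild-type range of 6.61 to 6.99 overlapped theirs. The last 2 probe sets differed by 0.23 (1434206_s_at, SE 0.38) and 0.20 (1425725_s_at, SE 0.12). Within the middle set these 5 differences were 0.18 (1434205_at), 0.04 (1425542_a_at), 0.12 (1425726_x_at), -0.02 (1434206_s_at) and 0.22 (1425725_s_at). With the sets as a block they were 0.29, 0.24, 0.28, -0.07 and 0.26 in the same order. The MOE430B probe set 1455520_at went the other way, with UBB+1 tg from 6.42 to 6.71 and wild type from 6.30 to 7.06, a difference of -0.08 (SE 0.12, exact permutation p = 0.519).

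Within the low, middle and high sets the difference at 1427003_at was 0.29, 0.49 and 0.55. With the set as a block it was 0.45 (SE 0.14, adjusted p = 0.665), and leaving out any 1 animal gave 0.51 to 0.77. The study lists Ppp2r5c among its regulated genes from these same samples, so the values are no independent evidence of its direction. The 6 probe sets read 1 gene in the same RNA and are not replicates.

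**Figure D3:**
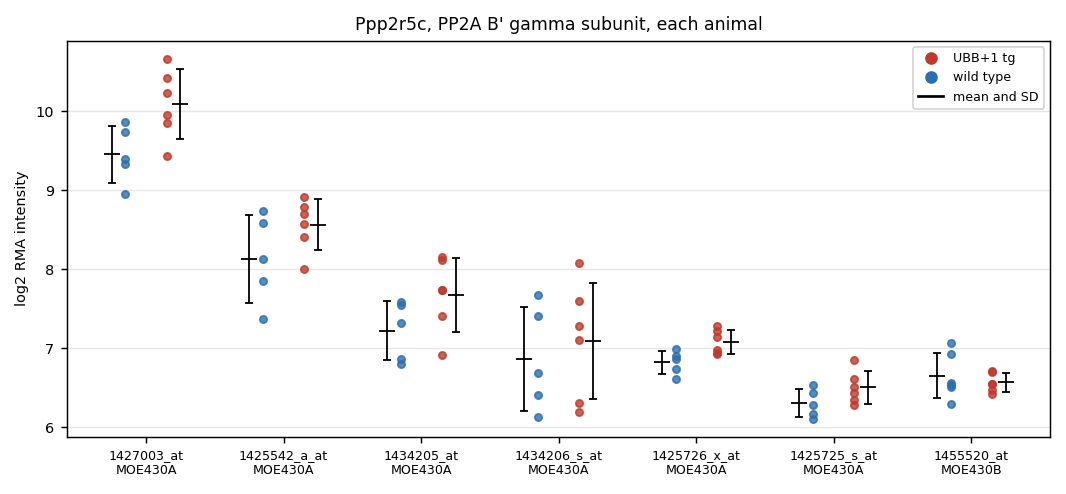
Log2 RMA intensity of the 7 Ppp2r5c probe sets in each UBB+1 tg (red) and wild-type (blue) mouse, with the mean and SD of each genotype in black. The UBB+1 tg mean is higher at all 6 MOE430A probe sets, by 0.20 to 0.63, and lower by 0.08 at the MOE430B probe set, and the genotypes overlap at each.

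None of the other B′ genes reached an unadjusted p under 0.05. Ppp2r5b, a B′ form that is prominent in brain, had UBB+1 tg levels of 6.52 to 7.46, all below the wild-type mean of 7.47, with wt287 (8.19) and wt290 (8.63) standing above the other wild-type animals (6.74 to 6.98). Both belong to the low set. The difference was -0.52 (SE 0.35, exact permutation p = 0.234), and 0.07 within the middle set. Ppp2r5a differed by 0.03 (SE 0.50) on MOE430A and -0.13 (SE 0.09) on MOE430B, Ppp2r5d by -0.08 (SE 0.12), and the 5 probe sets of Ppp2r5e by -0.03 to 0.17.

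Ppp2r3c, a B″ subunit, gave the only lower value at an unadjusted p under 0.05 in limma. At 1453515_at UBB+1 tg levels were 5.32, 5.36, 5.25, 5.09, 5.21 and 5.21 in tg270, tg271, tg273, tg274, tg276 and tg277. Wild-type levels were 5.36, 5.43, 5.39, 5.32 and 5.55 in wt287, wt289, wt290, wt291 and wt321. All 6 UBB+1 tg animals lay below the wild-type mean of 5.41, with tg270 at the lowest wild-type level and tg271 inside the wild-type range. The difference was -0.17 (SE 0.07, limma p = 0.034, adjusted p = 0.984, exact permutation p = 0.019). These levels are whole numbers before the log, and 1 unit is worth 0.04 on the log2 scale here. With the block the difference was -0.16 (adjusted p = 0.705), no longer at an unadjusted p under 0.05. The brighter Ppp2r3c probe set 1417478_a_at differed by 0.23 (SE 0.27) and the dim 1417479_at by 0.02 (SE 0.14).

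The inhibitors of PP1 had more lower than higher values on MOE430A, 9 against 5 of 14 probe sets, with a median of -0.13. Fixing the array set as a block brought this median to -0.079, and within the middle set it was -0.012, with 6 of the 14 higher. The 3 largest came from probe sets with 73.2% to 96.8% of their variance between the array sets. Ppp1r14a (CPI-17, which blocks myosin phosphatase when phosphorylated) ran from 5.81 to 7.76 in UBB+1 tg and from 6.46 to 9.13 in wild type. The difference was -0.74 (SE 0.50, exact permutation p = 0.216), and -0.10 within the middle set. Ppp1r11 was -0.69 (SE 0.62) at 1448565_at and 0.02 (SE 0.13) at its brighter probe set 1417060_at.

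Ppp1r1a (inhibitor 1, which blocks PP1 once protein kinase A has phosphorylated it) showed the pattern most plainly. The middle set was at 8.07 to 8.28 in both genotypes, the low set at 9.19 to 9.55 and the high set at 8.96 and 9.12, and 96.8% of the variance lay between sets. The difference was -0.40 (SE 0.31), and 0.004 within the middle set. Ppp1r14b, a relative of Ppp1r14a, was lower at both MOE430A probe sets. At 1450914_at the difference was -0.30 (SE 0.34), with 92.5% of the variance between sets. At 1436716_at it was -0.15 (SE 0.08, limma p = 0.080, adjusted p = 0.984, exact permutation p = 0.0195), with 8.69% of the variance between sets. All 6 UBB+1 tg animals lay below the wild-type mean there, and 4 below every wild-type animal. That difference was -0.15 with the block, and -0.043, -0.26 and -0.031 within the low, middle and high sets. Ppp1r1b (DARPP-32, the dopamine-regulated relative of inhibitor 1) differed by -0.13 (SE 0.10), by -0.064 with the block, and by -0.18, -0.0051 and -0.07 within the low, middle and high sets.

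Ppp1r2 (inhibitor 2) differed in sign from most of the other inhibitors, with all 4 of its probe sets higher in UBB+1 tg. At 1417342_at UBB+1 tg levels were 7.35, 7.20, 6.89, 6.97, 7.22 and 7.18 in tg270, tg271, tg273, tg274, tg276 and tg277. Wild-type levels were 6.94, 6.93, 7.02, 6.92 and 6.79 in wt287, wt289, wt290, wt291 and wt321. Of the UBB+1 tg animals 4 lay above every wild-type animal. The difference was 0.21 (SE 0.09, limma p = 0.037, adjusted p = 0.984, exact permutation p = 0.037), and 0.22, 0.21 and 0.42 within the low, middle and high sets. At the brightest probe set 1448684_at it was 0.10 (SE 0.21), at the dim 1417341_a_at 0.04 (SE 0.21), and on MOE430B 0.31 (1456830_at, SE 0.30).

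Of the targeting subunits of PP1, those that bring it to myosin had the highest MOE430B value. Ppp1r12a (MYPT1), the myosin-binding subunit, was at 8.64 to 9.24 in UBB+1 tg and 8.13 to 9.20 in wild type at 1437735_at, and all 6 UBB+1 tg animals lay above the wild-type mean of 8.61. The difference was 0.35 (SE 0.17, exact permutation p = 0.0974, adjusted p = 1.00), and the other 3 Ppp1r12a probe sets differed by -0.01 to 0.11. At 1437735_at it was 0.49, 0.34 and -0.034 within the low, middle and high sets. Ppp1r16a was lower by -0.17 at both probe sets (SE 0.16 and 0.21). The 14 myosin-targeting probe sets together were 6 higher and 8 lower.

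Neurabin (Ppp1r9a), which holds PP1 at the actin of dendritic spines, had 5 MOE430B probe sets that disagreed in sign, from -0.16 (1457603_at, SE 0.18) to 0.18 (1456072_at, SE 0.21), with -0.10 (SE 0.18) at the brightest, 1440285_at. The glycogen-targeting subunits lay between -0.04 and 0.24 over 9 probe sets, 7 of them higher. Of these, Ppp1r3f, the brightest, differed by 0.01 (SE 0.13). The nuclear subunits Ppp1r7, Ppp1r8 and Ppp1r10 differed by -0.15 to 0.30, with Ppp1r7 at 0.07 (SE 0.27) at its brightest probe set and 0.30 (SE 0.16) at the other.

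Ppp1r15a (GADD34) and Ppp1r15b (CReP) direct PP1 to the translation factor eIF2α and so end the stress-induced block of translation. Stress-induced Ppp1r15a differed by -0.14 (SE 0.15), with the interval from -0.47 to 0.18. Ppp1r15b differed by 0.34 at 1426798_a_at (SE 0.22, exact permutation p = 0.193), where tg271 and tg273, both at 8.47, were highest, and by 0.02 (SE 0.11) at its other probe set. At 1426798_a_at the difference was 1.14, 0.21 and -0.24 within the low, middle and high sets. The remaining PP1 partners, 15 probe sets for 10 genes, lay between -0.20 and 0.17.

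PP4 and PP6 each use their own regulatory subunits. Ppp4r1, a scaffold-like subunit of PP4, had the second largest higher value. UBB+1 tg levels were 7.33, 6.81, 7.08, 7.51, 7.48 and 7.18 in tg270, tg271, tg273, tg274, tg276 and tg277. Wild-type levels were 5.78, 7.09, 6.86, 6.60 and 7.02 in wt287, wt289, wt290, wt291 and wt321. The low wild-type value of wt287 stood apart, and 4 UBB+1 tg animals lay above every wild-type animal. The difference was 0.56 (SE 0.23, 1.48-fold, limma p = 0.030, adjusted p = 0.984, exact permutation p = 0.030), it was 0.34 without wt287, and it was 0.49, 0.50 and 0.24 within the low, middle and high sets.

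Ppp4r2, which binds PP4 in nuclear repair complexes, was higher at both probe sets, by 0.27 (1433850_at, SE 0.22) and 0.31 (1433851_at, SE 0.24). Within the middle set they differed by 0.088 and -0.080, and 87.2% and 79.6% of their variance lay between the array sets. Ppp4r3b was higher by 0.19 (SE 0.08, limma p = 0.035, exact permutation p = 0.035) at 1423198_a_at, a dim probe set where 1 unit of the deposited value is worth 0.10. With the block it was 0.16 (adjusted p = 0.705), no longer at an unadjusted p under 0.05. Its 3 other probe sets gave -0.03, 0.02 and 0.23. The PP6 subunits Ppp6r2 and Ppp6r3 were higher at all 6 MOE430A probe sets, by 0.02 to 0.18, and 2 of 4 PP6 probe sets on MOE430B were higher. There, Ppp6r2 at 1453325_at was 5.19 to 5.66 in UBB+1 tg and 4.69 to 5.33 in wild type, a difference of 0.21 (SE 0.11, exact permutation p = 0.0606), which was 0.12 without wt331 and 0.14 without tg271. Ppp6r3 at 1439161_at differed by 0.23 (SE 0.17), and by 0.081 without tg273. The 11 probe sets of the pseudogenes and the antisense transcript lay between -0.14 and 0.06, none at an unadjusted p under 0.05.

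Probe sets of 1 gene did not always go the same way. Of 23 subunit genes with several probe sets on MOE430A, 12 were higher at all of them, 5 lower at all and 6 went both ways. On MOE430B, of 11 such genes 2 were higher at all, 4 lower at all and 5 went both ways.

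With the array set as a block, 9 of the 91 MOE430A members were higher at an unadjusted p under 0.05 and 1 was lower, where 3.77% of all probe sets were higher and 3.42% lower, and 0% passed a false discovery rate of 10%. The 9 were 3 probe sets of Ppp2r5c and 1 each of Ppp4r1, Ppp4r2, Ppp1r2, Ppp1r3a, Ppp1r7 and Ppp1cb, and the lower one was of Ppp5c. The Ppp1r3a probe set, 1422108_at, was dim and differed by 0.28 (SE 0.07) with the block. On MOE430B 3 were higher (Ppp1r12a, Ppp1r12b and Ppp6r2) and none lower, where 2.38% of all were higher and 2.68% lower, and again 0% passed the false discovery rate. The Ppp1r12b probe set, 1445850_at, was dim, and the others of that gene gave -0.04, 0.02 and 0.16 with the block. On MOE430A the block brought the catalytic median from 0.083 to 0.014 and the regulatory median from 0.027 to 0.0066. It turned the sign at 11 of 91 members on MOE430A and 15 of 68 on MOE430B, where 15.4% and 12.7% of all probe sets turned.

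A difference of one sign in each of the 3 sets was found at 23 members of MOE430A for UBB+1 tg higher (25.3%, where 13.9% of all probe sets did so) and at 11 for lower (12.1%, of all 11.6%). Of the 23, 4 were Ppp2r5c and 4 were catalytic (2 of Ppp1cb, 1 each of Ppp1cc and Ppp2ca). On MOE430B it was 6 higher (8.82%, of all 10.6%) and 3 lower (4.41%, of all 12.1%). Several of these probe sets read the same gene, so the shares do not count independent genes.

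**Figure D4:**
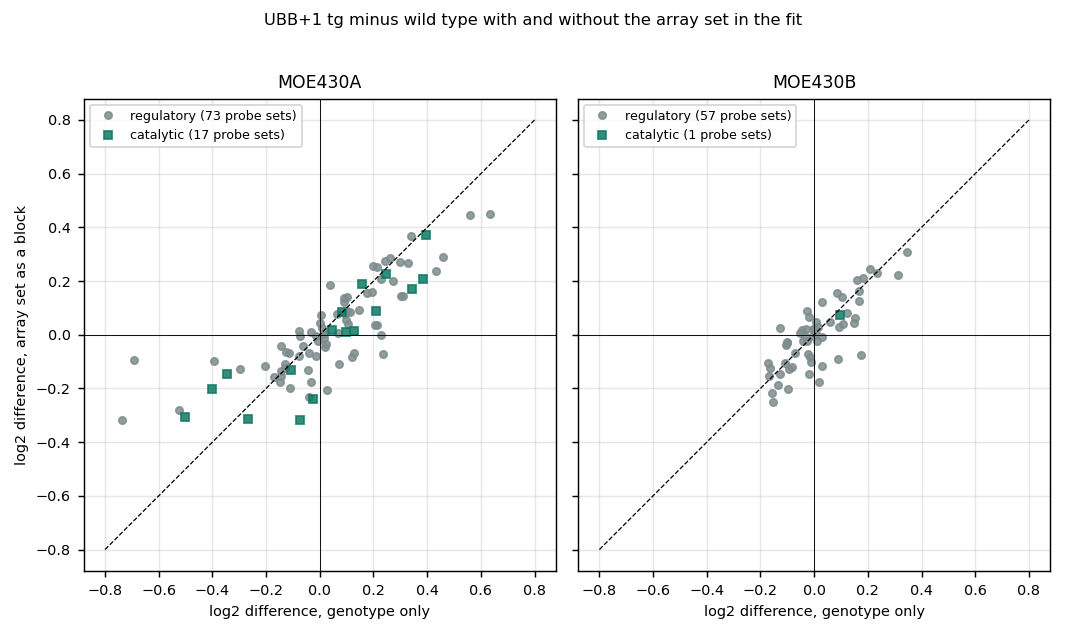
Log2 difference (UBB+1 tg minus wild type) of each subunit probe set without (x axis) and with (y axis) the array set as a block, for catalytic (green squares) and regulatory probe sets (grey), with the dashed line marking equal values. Ppp2r5c and Ppp4r1 stay the highest at 0.45, while Ppp1r11 moves from -0.69 to -0.09 and Ppp1r1a from -0.40 to -0.10.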

How the data were processed

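Total RNA (5 ng) of laser-dissected CA3 tissue was amplified in 2 rounds and hybridised to Affymetrix MOE430A and MOE430B arrays. The authors summarised probe sets by RMA. Deposited MOE430A values are linear intensities in whole numbers, taken to log2 here, and deposited MOE430B values are log2. No read depth applies, so the number of arrays limits the precision. Whether values of the 2 kinds of array are on one scale was not given, so each was fitted alone.

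Genotype was fitted over all probe sets of each array with limma 3.58.1 in R 4.3.3 (lmFit, eBayes), leaving out control probe sets and the one that reads the transgene promoter, with a threshold of 10% on the false discovery rate. RMA, limma and this threshold are those of the study's methods, and the Benjamini-Hochberg adjustment within each array was chosen here. The fit was tested on simulated data. The study's own list, also at 10%, came from single probes, not used here. Its methods state that RMA and limma at this threshold bore those results out. Here limma called 0% of all probe sets on MOE430A and 0% on MOE430B, and the reason for the difference was not tested. Single values also had an exact two-sided permutation test over the animals. Array sets came from complete linkage of the arrays on 1 minus their correlation. No filter on dim probe sets was applied. The alternatives were the array set as a block, the 3′ to 5′ gap as a covariate, the middle set alone, array weights, a variance trend, a second quantile normalization, filters on dim or shared probe sets, averaging per gene, a stricter threshold of 5%, dropping wt331, and leaving out each animal. Each p sets a genotype difference against the spread between animals, which had 1 array of each kind. Without the block this spread includes that between the array sets.

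The members and lists were chosen with earlier results of these data known. Genes were named by rule: all catalytic probe sets, regulatory ones at an unadjusted p under 0.05, the 5 largest rises and falls per array, the brightest gene of each role, and Ppp2r5c. A few others are named to describe their role group and were chosen after their values were seen. Probe sets that name several genes (3 on MOE430A and 1 on MOE430B with a member's symbol) were left out.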

Additional observations from a re-analysis of the deposited data

Results flagged for a closer look

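In groups of 5 or 6 animals, the gap between the most extreme animal and the rest was tested with Dixon's ratio for the 54 probe sets named by rule, and 9 of 108 groups passed the 95% critical value, where chance gives about 1 in 20. On MOE430A, Ppp1ca was lowest in tg270 (7.75, the other UBB+1 tg animals 10.14 to 11.02) and in wt289 (8.25, the other wild-type animals 10.44 to 11.09). Ppp5c was lowest in tg270 at 1424115_at (5.0, others 6.99 to 7.67) and at 1424116_x_at (7.10, others 8.69 to 9.33). Both animals make up the high array set.

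On MOE430B, Ppp2r2c at 1443804_at was highest among UBB+1 tg in tg271 (4.57, others 4.05 to 4.19), Ppp6r2 at 1453325_at was highest in tg271 (5.66, others 5.19 to 5.33) and lowest among wild type in wt331 (4.69, others 5.12 to 5.33), Ppp1r9a at 1456072_at was highest among wild type in wt289 (10.38, others 9.21 to 9.54), and Ppp1r2 at 1456830_at was lowest among UBB+1 tg in tg271 (5.15, others 6.36 to 6.96).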

How the results depend on the processing

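No member passed a false discovery rate of 10% under any of the 20 alternative settings on MOE430A or the 22 on MOE430B. The count at an unadjusted p under 0.05 on MOE430A, 6 as reported, was 10 with the array set as a block, 14 with array weights and 3 with probe sets averaged per gene, and it ran from 2 to 11 when 1 animal was left out, with 2 without tg276, 3 without tg270, tg277, wt287 or wt290, and 11 without tg271. The median of the regulatory probe sets on MOE430A was 0.071 with array weights, 0.067 without dim probe sets, and 0.0050 to 0.094 when 1 animal was left out. That of the catalytic probe sets on MOE430A, 0.083 as reported, ran from 0.019 to 0.12 when 1 animal was left out, and that of the regulatory probe sets on MOE430B from -0.026 to 0.0045. On MOE430B the count of 0 became 3 with the array set as a block, 3 with array weights, 4 within the middle array set and 1 when limited to the animals hybridised to both arrays, and ran from 0 to 3 when 1 animal was left out, with 3 without tg271 and 2 without wt291. Of 1041 values of the named probe sets under the alternatives, 1 moved by more than 1 SD, Ppp2r5c 1455520_at, which was -0.30 within the middle array set. The sign turned in 55 of the 1041, most often in the middle set alone on MOE430A (13 of 41). No paired analysis was possible because the replicate numbers name animals and the genotypes share none of them. Each gene's error limits what these arrays could show: the median SE was 0.21 for catalytic and 0.13 for regulatory probe sets on MOE430A. The causes were not tested.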

Other observations

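Genes that work with these phosphatases or against them were counted by their brightest probe set. Over all probe sets, 51.7% on MOE430A and 47.6% on MOE430B had a higher mean in UBB+1 tg, and 1.91% and 1.52% were higher at an unadjusted p under 0.05. Of the partners and modulators of PP2A, 18 of 19 listed were measured, 10 higher and 8 lower in UBB+1 tg, with 1 higher at an unadjusted p under 0.05 (Cip2a, an inhibitor of PP2A, 0.16, SE 0.07). Ensa, which blocks PP2A once it is phosphorylated, differed by -0.24 (SE 0.12), and Mob4, a member of the PP2A striatin complex, by 0.56 (SE 0.30). The PP2A list also holds Ctdsp1, which is itself a phosphatase. Of 14 PP1 partners without a Ppp symbol, 6 were higher and 8 lower, and none reached that p. Ankrd28, a subunit that pairs with the PP6 subunits named above, was higher by 0.67 (SE 0.22, limma, adjusted p = 0.984), and the other 2 of 3 PP6 partners differed by 0.14 and -0.14.

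Of 24 other serine/threonine phosphatases, 23 were measured, with 17 higher and 6 lower, and 2 were higher at an unadjusted p under 0.05. They were Ppm1e, a brain phosphatase that turns off CaM kinases (0.49 on MOE430B, SE 0.14, limma, adjusted p = 1.00), and Ppm1b (0.34 on MOE430A, SE 0.15, adjusted p = 0.984). Of the listed kinases that act against these phosphatases and their regulators, 11 of 15 were measured, 8 higher and 3 lower. The higher ones include regulators that are not kinases: Prkar1a (0.26), Prkar1b (0.18), Prkar2a, Prkar2b (0.13) and Cdk5r1 (0.15). The kinases themselves went both ways, with Prkaca (-0.20), Cdk5 (-0.09) and Akt1 (-0.07) lower and Prkacb (0.07), Gsk3a (0.06) and Gsk3b (0.006) higher. Of the 11 measured, Prkar2a, a regulatory subunit of protein kinase A, reached an unadjusted p under 0.05 in limma without the block. It was higher by 0.16 (SE 0.07, adjusted p = 0.984). Its probe set was in the lowest 25% of the array, and the block on array sets brought it to 0.13, no longer at that p. None of these lists had a member past a false discovery rate of 10%.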
